A study of Setaria italica with 18 samples.

Results

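Phosphate (Pi) genes were followed in leaves of foxtail millet (Setaria italica) seedlings during treatment with diluted artificial seawater. The set was taken from the annotation alone: every gene whose description named an SPX domain, an inorganic phosphate transporter, a purple acid phosphatase, a phosphate transporter PHO1 or a sulfoquinovose step of sulfolipid synthesis. These 5 phrases found 62 of the 29108 genes in the expression table. They comprised 6 soluble SPX proteins, 4 SPX membrane proteins of the SPX-MFS type, 5 PHO1 exporters, 10 inorganic phosphate transporters (9 of family 1, written PHT1, and 1 of family 2, PHT2), 33 purple acid phosphatases (PAPs) and 4 sulfolipid enzymes. The number in a gene's name is that of the annotation's closest named protein, so several genes share a name and each is given here with its identifier.

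Plants take up phosphorus as inorganic phosphate, and they react to its shortage in a coordinated way that is best known from Arabidopsis and rice. SPX proteins bind inositol pyrophosphates, the signals of sufficient phosphate, and then hold back PHR transcription factors; when phosphate runs short the PHR factors are released and turn on starvation genes, several SPX genes among them. PHT1 proteins carry phosphate across the plasma membrane, SPX-MFS proteins move it across the vacuole membrane, PHO1 proteins export it from cells and PHT2 carries it into chloroplasts. PAPs are metal-containing phosphatases, many of them secreted, that free phosphate from organic compounds, and sulfolipid made by SQD1 and SQD2 can stand in for phospholipid in the chloroplast.

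The samples were leaves (the second and the third) of seedlings of 2 varieties, the salt-sensitive B175 (B) and the salt-tolerant JK3 (J), collected at 0, 12 and 24 h of the seawater treatment. Groups are written by variety and hour (B0, B12 and B24 for B175, J0, J12 and J24 for JK3), with 3 libraries in each of the 6 and 18 in all. The labels name no genetic change in either variety, and the study's methods call the 3 replicates biological. Whether a library came from 1 plant or from pooled plants is not given in the sources used here. Seedlings were grown in 12 h days and 12 h nights, so the leaves of 12 h came from the other phase of the daily cycle than those of 0 and 24 h. The 18 libraries held no water-treated leaves of 12 or 24 h, and seawater, time of day and seedling age cannot be told apart.

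Expression was deposited as FPKM, the fragments mapped to a gene per kilobase of its length, scaled to the mapped fragments of the library. The fragment totals of the libraries were 34738627 to 38798886, and correlations of log2(FPKM + 1) within groups were 0.940 to 0.988. The 100 most abundant genes of a library took 22.3 to 29.3% of its fragments at 0 h, 12.8 to 13.7% at 12 h and 19.7 to 25.9% at 24 h. The median gene moved by 0.43 in B12 vs B0 and 0.37 in J12 vs J0 on the log2 scale, by -0.31 in B24 vs B12 and -0.34 in J24 vs J12, and by 0.08 in B24 vs B0 and by 0.03 in J24 vs J0. Median-ratio scaling, which divides each library by its median ratio to a common reference, brought these medians to between -0.02 and 0.01. It is quoted for some of the calls that it changes, not for all. Summed FPKM of 26 leaf genes (chlorophyll-binding proteins, Rubisco small subunits and NADP-malic enzymes) was 30133 to 36730 in B0, 4739 to 7295 in B12, 11807 to 24427 in B24, 13985 to 16659 in J0, 2402 to 2675 in J12 and 9964 to 12128 in J24, whereas 3 root endodermis genes summed to at most 1.18. Summed FPKM of 6 clock genes was 103 to 168 at 0 h, 606 to 808 at 12 h and 140 to 207 at 24 h.

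Of the 62 genes, 54 had a mean of at least 0.1 FPKM over all libraries and were tested, and 45 were above 0 in every library. The other 8 had at most 101 recovered fragments in all 18 libraries together. They were PHT1-6 (Seita.4G276500), PHT1-7 (Seita.9G548500), PHT1-9 (Seita.4G140700), PHT1-12 (Seita.9G538600), a second PHT1-8 gene (Seita.6G012100), PHO1 homolog 9 (Seita.6G090300), an SPX-MFS gene (Seita.2G279600) and a PAP27 gene (Seita.6G222600). The median gene of the set had a mean of 5.32 FPKM, and 26 genes had a mean of at least 10 FPKM. Levels reached 278 FPKM for PAP2 Seita.3G405700, 199 for SPX-MFS Seita.4G018900, 149 for PHT1-8 Seita.9G238300 and 124 for SQD1 Seita.3G259100. FPKM is per length, so these levels can be set side by side.

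Changes were tested with limma on log2(FPKM + 1) over all 23824 genes with a mean of at least 0.1 FPKM. A gene was called up-regulated or down-regulated where its Benjamini-Hochberg adjusted p was under 0.05 and its log2 fold change exceeded 1 in size. Adding 1 understates the change of genes below a few FPKM. In whole leaves, fewer cells of a type and less RNA per cell cannot be told apart.

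In B12 vs B0, 16 of the 54 tested genes were up-regulated (28.0% of all genes tested) and 9 were down-regulated (9.81% of all). In J12 vs J0, 6 were up-regulated (24% of all) and 8 down-regulated (7.67% of all). After median-ratio scaling the split was 6 up and 15 down in both varieties, against 15.3% up and 16.0% down of all genes in B175 and 12.7% up and 12.4% down in JK3. The share of the set up-regulated in J12 vs J0 was thus 11.1%, below the share of all genes without scaling and close to it with scaling.

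In B24 vs B0, 11 genes were up-regulated (10.2% of all genes) and 3 down-regulated (6.02% of all), and in J24 vs J0, 8 were up-regulated (5.36% of all) and 1 down-regulated (2.06% of all). These shares of the set, 20.4% in B175 and 14.8% in JK3, were above those of all genes, and with scaling 11 genes (8.26% of all) and 8 genes (5.10% of all) were up-regulated. From 12 to 24 h, 15 genes were up-regulated in B175 (7.86% of all) and 5 down-regulated (18.8% of all). In JK3, 12 were up-regulated (7.30% of all) and 3 down-regulated (18.7% of all). In either direction 25 genes were called in B12 vs B0 (37.8% of all), 14 in J12 vs J0 (31.6%), 14 in B24 vs B0 (16.2%), 9 in J24 vs J0 (7.42%), 20 in B24 vs B12 (26.6%) and 15 in J24 vs J12 (26.0%). The median log2 fold change of the 54 genes was 0.28, 0.24 and 0.17 in B12 vs B0, B24 vs B0 and B24 vs B12, and 0.10, 0.22 and 0.16 in the same comparisons of JK3.

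**Figure D1:**
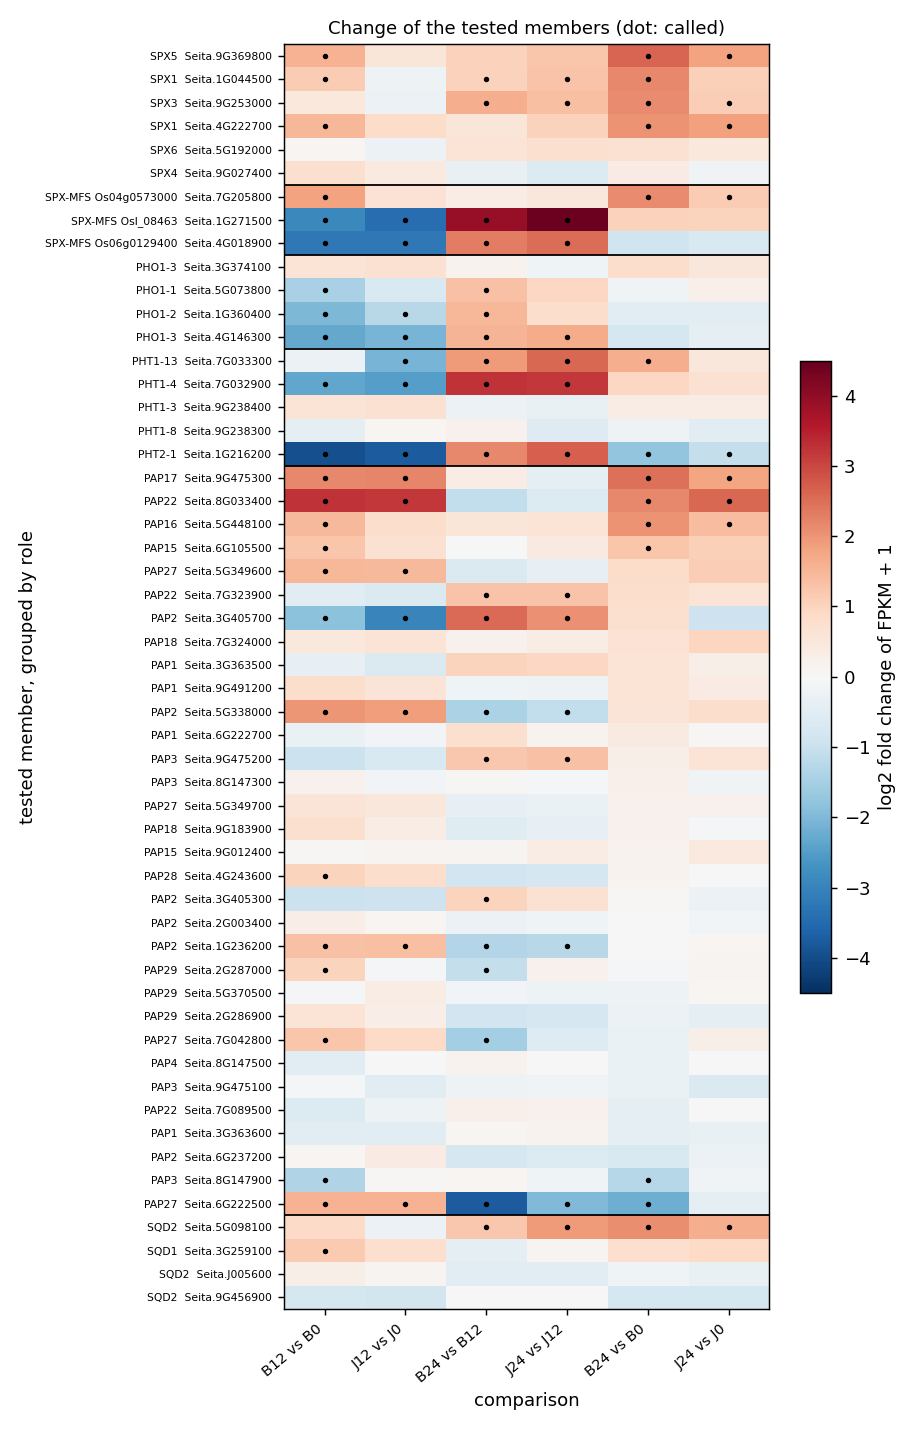
Log2 fold change of FPKM + 1 (colour) of the 54 tested genes, in rows grouped by role, in the 6 comparisons between times, with a dot where the gene was called. The called SPX genes are red at 24 h against 0 h, while 2 SPX-MFS genes, 3 PHO1 genes, PHT1-4 and PHT2-1 are blue at 12 h and red from 12 to 24 h.

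At 24 h against 0 h, 8 of the 54 genes were up-regulated in both varieties, where 3.84% of all genes were. They were 3 SPX genes (SPX1 Seita.4G222700, SPX3 Seita.9G253000 and SPX5 Seita.9G369800), the SPX-MFS gene Seita.7G205800, 3 PAPs (PAP16 Seita.5G448100, PAP17 Seita.9G475300 and PAP22 Seita.8G033400) and SQD2 Seita.5G098100. The same 8 were called after median-ratio scaling (3.38% of all genes). In JK3 these calls rested on few libraries. Without J0 replicate 2 or J0 replicate 3, 3 of the 8 were left, and without J24 replicate 3 only PAP22 Seita.8G033400 was. When only the 2 compared groups entered each fit, 1 of the 8 was left, SPX3 Seita.9G253000. SPX1 Seita.4G222700, SPX3 and PAP16 were singled out for description after their values were seen.

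**Figure D2:**
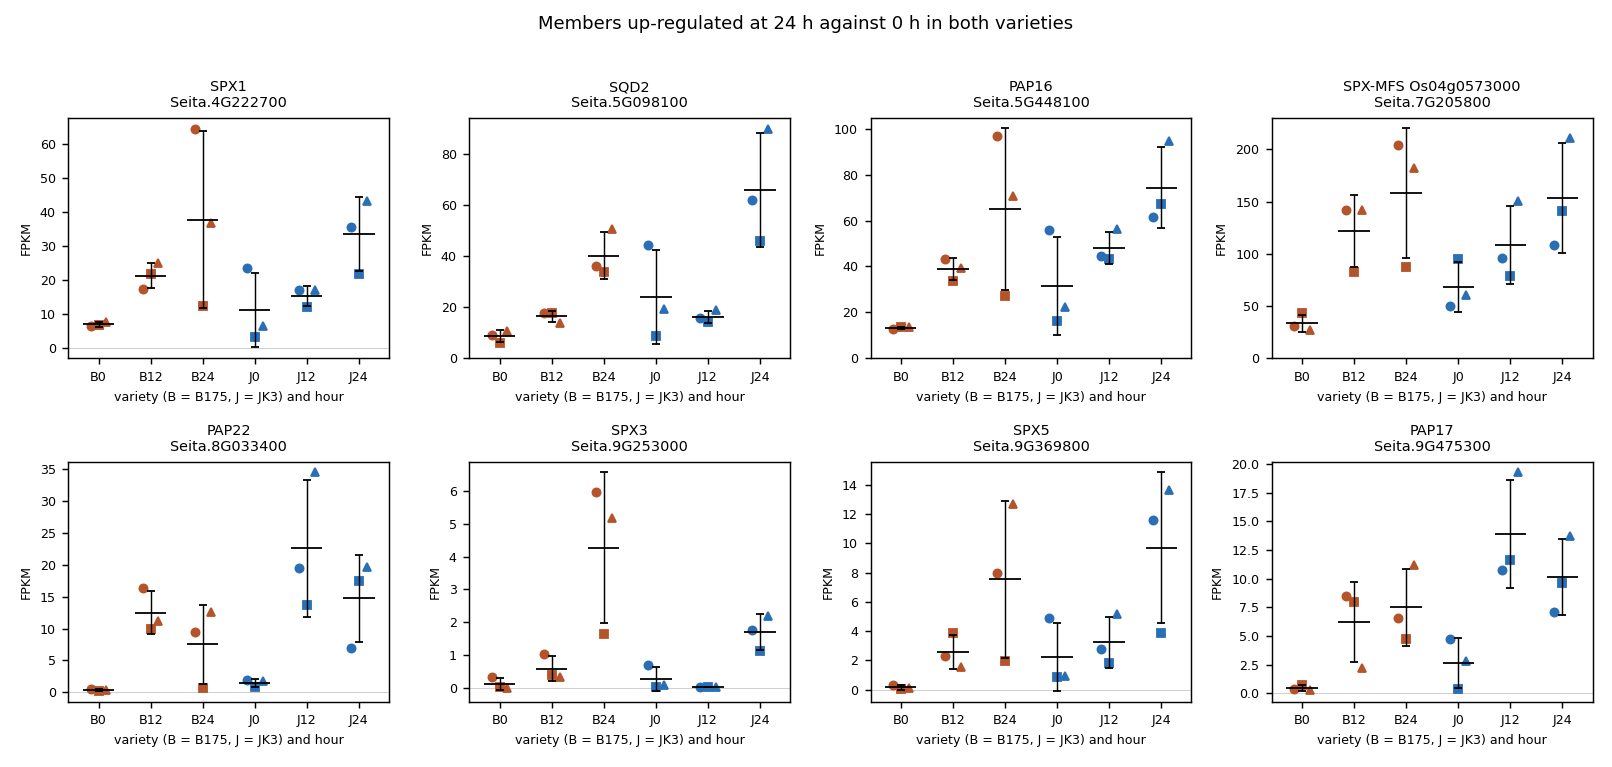
FPKM of the 8 genes up-regulated at 24 h against 0 h in both varieties, by group. Circles, squares and triangles are replicates 1, 2 and 3, the long bar is the mean and the thin bar 1 SD, n = 3. The B0 libraries lie close together and low, the J0 libraries are spread, and replicate 2 is the lowest B24 library in all 8 genes.

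SPX proteins sense phosphate status, and 4 of the 6 SPX genes were up-regulated in B24 vs B0 (10.2% of all genes) and 3 in J24 vs J0 (5.36% of all). SPX1 Seita.1G044500 was the most abundant, with 25.6, 16.7 and 17.6 FPKM in B0, 55.2, 44.7 and 34.9 in B12 and 142, 55.1 and 97.9 in B24. Every B24 library was above every B0 library, and the mean was 4.93-fold higher (log2 fold change 2.17, SE 0.39, adjusted p = 0.000539). In JK3 the same gene had 75.1, 24.7 and 36.9 FPKM in J0, 34.1, 28.0 and 45.0 in J12 and 93.0, 58.3 and 122.5 in J24. The J0 and J24 libraries overlapped through J0 replicate 1, and J24 vs J0 was not called (log2 fold change 1.07, SE 0.39, adjusted p = 0.0690), whereas J24 vs J12 was (1.29 with SE 0.39 and adjusted p = 0.0113).

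The other SPX1 gene, Seita.4G222700, had 6.35, 6.72 and 7.71 FPKM in B0, 17.3, 21.6 and 24.9 in B12 and 64.4, 12.2 and 36.7 in B24. All B24 libraries exceeded B0, and replicate 2 was the lowest of B24 (log2 fold change 2.01, SE 0.55, adjusted p = 0.00973). JK3 had 23.4, 3.30 and 6.29 FPKM in J0, 17.0, 11.9 and 16.9 in J12 and 35.7, 21.8 and 43.1 in J24. The groups J0 and J24 overlapped by J0 replicate 1 alone, and the gene was called (log2 fold change 1.86, SE 0.55, adjusted p = 0.0295).

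SPX5 Seita.9G369800 had 0.346, 0.0354 and 0.136 FPKM in B0 and 7.98, 1.95 and 12.7 in B24, the largest increase among the SPX genes in B175 (log2 fold change 2.61, SE 0.56, adjusted p = 0.00208). It was already up-regulated at 12 h, with 2.33, 3.87 and 1.55 FPKM (1.57, adjusted p = 0.0227), a call that median-ratio scaling removed. In JK3, J0 had 4.92, 0.893 and 0.929 FPKM and J24 11.6, 3.90 and 13.6, with J24 replicate 2 below J0 replicate 1 (log2 fold change 1.80, SE 0.56, adjusted p = 0.0380). SPX3 Seita.9G253000 was nearly silent at 0 h, at 0.344, 0.0353 and 0 FPKM in B0 and 0.689, 0.0342 and 0.103 in J0. At 24 h it had 5.96, 1.66 and 5.18 FPKM in B24 and 1.78, 1.13 and 2.2 in J24, above every 0 h library of its variety (2.12, adjusted p = 8.86e-05 and 1.10, adjusted p = 0.0231). In J12 it stayed at 0.0338 to 0.0346 FPKM, that is 1 fragment in each library.

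The remaining SPX genes were not called in any comparison. SPX4 Seita.9G027400, which in rice keeps the PHR2 factor out of the nucleus, ranged from 15.6 to 36.2 FPKM over all libraries, and SPX6 Seita.5G192000 from 0.0360 to 3.39. At 12 h the SPX genes gave 3 calls in B175, all increases (28.0% of all genes), and none were left after scaling (15.3% of all). In JK3 they gave 0 calls (24% of all genes were up-regulated). In B175 limma found 4 SPX genes higher at an unadjusted p under 0.05, and voom on the recovered fragments called 4 (8090 of all 23824 genes). In JK3 limma found 1 such gene and voom called 0 (7155 of all).

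SPX-MFS proteins are vacuolar phosphate carriers in rice, and 2 of the 3 tested genes were down-regulated at 12 h in both varieties (6.01% of all genes). Seita.4G018900 (named after rice Os06g0129400) was the second most abundant gene of the set. It had 417, 313 and 413 FPKM in B0, 42.9, 36.4 and 39.9 in B12 and 206, 179 and 219 in B24, and 400.0, 233 and 377 in J0, 35.6, 31.2 and 36.6 in J12 and 212, 205 and 188 in J24. The 12 h libraries of both varieties lay far below all others, at a 9.59-fold lower mean in B12 than in B0 and a 9.77-fold lower mean in J12 than in J0 (log2 fold change -3.22, SE 0.18, adjusted p = 6.24e-10 and log2 fold change -3.21, SE 0.18, adjusted p = 7.87e-10). At 24 h all 6 libraries had returned above 12 h without reaching the mean of 0 h (-0.91 in B24 vs B0 and -0.70 in J24 vs J0, neither called). With scaling the B24 vs B0 difference was called (-1.10).

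Seita.1G271500 (OsI_08463) had 17.3, 18.5 and 16.5 FPKM in B0, 1.02, 1.30 and 2.33 in B12 and 52.5, 20.8 and 46.7 in B24. The 3 groups did not overlap, and the gene was down-regulated at 12 h (log2 fold change -2.89, SE 0.57, adjusted p = 0.000386) and up-regulated from 12 to 24 h (log2 fold change 3.94, SE 0.57, adjusted p = 3.32e-05). In JK3 the libraries had 58.6, 5.41 and 13.8 FPKM in J0, 1.02, 0.641 and 0.375 in J12 and 55.7, 22.5 and 32.5 in J24, and its increase from J12 to J24 was the largest of any member on the log2(FPKM + 1) scale, which understates low genes (4.42 with SE 0.57 and adjusted p = 1.07e-05). J0 replicate 1 was far above the other J0 libraries.

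The remaining gene, Seita.7G205800 (Os04g0573000), was not lower at 12 h. It had 30.7, 42.9 and 27.3 FPKM in B0, 142, 82.3 and 142 in B12 and 204, 86.9 and 183 in B24, with no B0 library as high as any later one (1.81 in B12 vs B0, adjusted p = 0.000363; 2.13 in B24 vs B0, adjusted p = 0.000320). In JK3 it had 49.6, 94.9 and 60.4 FPKM in J0, 95.7, 79.1 and 150.3 in J12 and 108, 141 and 211 in J24. J24 vs J0 was called (log2 fold change 1.16, SE 0.36, adjusted p = 0.0375) and J12 vs J0 was not (0.66, adjusted p = 0.133). The J24 call was lost under 7 of 14 alternatives, among them the fits without J0 replicate 1, J0 replicate 3, J24 replicate 2 or J24 replicate 3.

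**Figure D3:**
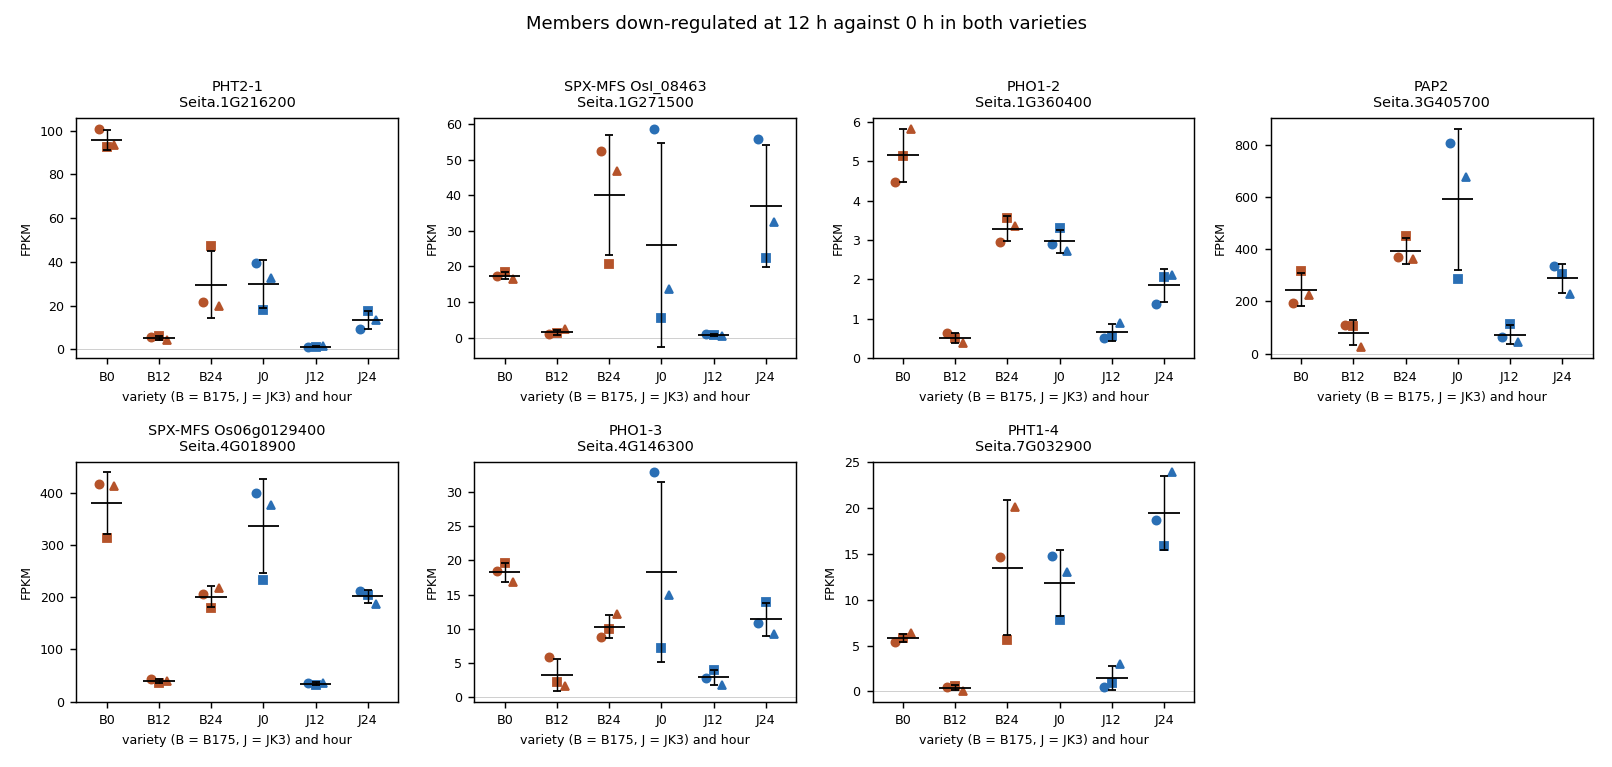
FPKM by group of the 7 genes down-regulated at 12 h against 0 h in both varieties, drawn as circles, squares and triangles for replicates 1, 2 and 3, with the mean (long bar) and 1 SD (thin bar), n = 3. The B12 and J12 libraries are the lowest of their variety in every panel, and J0 is the most spread group in several.

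Down-regulation at 12 h in both varieties was found for 7 of the 54 genes (6.01% of all genes): 2 SPX-MFS genes, 2 PHO1 genes, PHT1-4, PHT2-1 and PAP2 Seita.3G405700. With median-ratio scaling, 13 genes fell in both varieties (9.75% of all), these 7 among them. Up-regulation at 12 h in both varieties was found for 6 genes, all of them PAPs (19.1% of all), and for 5 of them with scaling (9.57% of all). Without J0 replicate 1 the number was 10. From 12 to 24 h, 12 genes were up-regulated in both varieties (5.91% of all) and 3 were down-regulated (13.9% of all), and with scaling 16 were up-regulated (8.89% of all).

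PHO1 proteins export phosphate and, in Arabidopsis, load it into the xylem. Of the 4 tested PHO1 genes, 3 were down-regulated at 12 h in B175 (9.81% of all genes) and 2 in JK3 (7.67% of all). The same 3 were up-regulated in B24 vs B12 (7.86% of all) and 1 in J24 vs J12 (7.30% of all). With scaling 2 were up-regulated in J24 vs J12 (2691 of all 23824 genes), and voom on the recovered fragments called all 3 there (2036 of all). PHO1-3 Seita.4G146300 had 18.5, 19.5 and 16.8 FPKM in B0, 5.84, 2.29 and 1.59 in B12 and 8.79, 10.01 and 12.1 in B24, with no overlap between any 2 groups (log2 fold change -2.31, SE 0.42, adjusted p = 0.000156). JK3 had 32.8, 7.14 and 14.97 FPKM in J0, 2.88, 4.02 and 1.83 in J12 and 10.9, 14.0 and 9.22 in J24, so the J12 libraries were the lowest (log2 fold change -2.11, SE 0.42, adjusted p = 0.000464). PHO1-2 Seita.1G360400, also singled out after its values were seen, fell in B175, with 4.47 to 5.82 FPKM in B0 and 0.389 to 0.645 in B12 (-2.01, adjusted p = 4.13e-08). It fell in JK3 too, with 2.71 to 3.29 in J0 and 0.503 to 0.902 in J12 (-1.26, adjusted p = 9.11e-06).

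PHO1-1 Seita.5G073800 was down-regulated in B175, with 3.31 to 3.92 FPKM in B0 and 0.413 to 0.984 in B12 (log2 fold change -1.45, SE 0.23, adjusted p = 4.30e-05). In JK3 its J0 libraries at 2.80 to 5.66 FPKM overlapped the J12 libraries at 1.67 to 2.86, and the difference was not called (-0.70, adjusted p = 0.0161). With scaling it was called (-1.09), so that 3 PHO1 genes were then down-regulated in each variety. The scaled shares of all genes were 16.0% in B175 and 12.4% in JK3. The difference between the varieties in this change was not called either (interaction 0.75, adjusted p = 0.199). At 12 h voom on the recovered fragments called PHO1-1 higher in J12 than in B12 (1.72, adjusted p = 0.0178), which limma did not.

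The other PHO1-3 gene, Seita.3G374100, was the most abundant PHO1 gene and was not called in any comparison. It had 31.5, 31.8 and 31.7 FPKM in B0, 47.7, 50.3 and 50.4 in B12 and 61.5, 49.2 and 57.6 in B24, with 31.6 to 36.6 in J0, 53.1 to 61.2 in J12 and 41.6 to 54.7 in J24. Its levels at 12 and 24 h were all above those at 0 h, but the log2 fold changes stayed between 0.52 (J24 vs J0) and 0.80 (B24 vs B0). The gene length behind its FPKM was 1269 bases, against 2409 to 2577 for the other 3 tested PHO1 genes.

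PHT2-1 Seita.1G216200, the chloroplast phosphate transporter, was down-regulated at 12 h in both varieties. It had 101, 92.5 and 93.4 FPKM in B0, 5.72, 6.05 and 4.28 in B12 and 21.8, 47.4 and 19.7 in B24, a 17.9-fold lower mean in B12 (log2 fold change -3.94, SE 0.31, adjusted p = 2.70e-08). In JK3 the libraries had 39.4, 18.0 and 32.8 FPKM in J0, 1.13, 1.08 and 1.42 in J12 and 9.29, 17.6 and 13.5 in J24 (log2 fold change -3.75, SE 0.31, adjusted p = 6.24e-08). No groups of a variety overlapped, and the gene was still below 0 h at 24 h (-1.77, adjusted p = 0.000475 in B175 and -1.07, adjusted p = 0.0280 in JK3). It was the 1 gene of the set down-regulated at 24 h against 0 h in both varieties (1.26% of all genes), and the JK3 call was lost without J0 replicate 1, J0 replicate 3, J24 replicate 1 or J24 replicate 3. Of 25 tested leaf genes, 20 were down-regulated at 12 h in each variety (9.81% of all genes in B175 and 7.67% in JK3). The 25 had a median log2 fold change of -2.25 in B175 and -2.33 in JK3, and their part in the change of PHT2-1 was not tested.

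PHT1 proteins take up phosphate at the plasma membrane. PHT1-4 Seita.7G032900 had 5.40, 5.78 and 6.31 FPKM in B0, 0.458, 0.579 and 0.0647 in B12 and 14.7, 5.57 and 20.2 in B24. The B12 libraries were far below both other groups (log2 fold change -2.34, SE 0.40, adjusted p = 9.07e-05 against B0), and B24 replicate 2 stayed at the level of B0 while the other B24 libraries rose above it. In JK3 it had 14.8, 7.84 and 13.0 FPKM in J0, 0.458, 0.912 and 2.94 in J12 and 18.7, 15.9 and 23.9 in J24, all J24 libraries being above all others (log2 fold change -2.49, SE 0.40, adjusted p = 6.53e-05 for J12 vs J0 and 3.19, adjusted p = 7.04e-06 for J24 vs J12). At 24 h against 0 h it was not called in B175 (0.93, adjusted p = 0.0838) or in JK3 (0.70, adjusted p = 0.2501).

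Its neighbour PHT1-13 Seita.7G033300 was expressed in JK3 at 0 h but hardly in B175. It had 8.94, 4.76 and 6.35 FPKM in J0, 0.551, 1.23 and 0.616 in J12 and 9.43, 7.68 and 12.5 in J24, so that the J12 libraries were the lowest (-2.08, adjusted p = 0.00273). In B175 it had 0.240, 0.141 and 0.355 FPKM in B0, 0.0861, 0 and 0 in B12 and 3.58, 0.179 and 9.83 in B24. B24 replicate 2 lay within the range of B0 and the other B24 libraries did not, and the call in B24 vs B0 (log2 fold change 1.64, SE 0.51, adjusted p = 0.0212) was lost under 6 of 14 alternatives, among them the fits without B0 replicate 1, B0 replicate 2, B24 replicate 1 or B24 replicate 3. The adjoining genes PHT1-8 Seita.9G238300 and PHT1-3 Seita.9G238400 were not called between any 2 times of a variety by limma on log2(FPKM + 1). With scaling PHT1-8 was down-regulated in B12 vs B0 (-1.08). Voom on the recovered fragments called PHT1-3 up-regulated at 12 and 24 h against 0 h in both varieties. PHT1-3 had 0 to 0.0739 FPKM at 0 h, 0.165 to 1.11 at 12 h and 0.191 to 0.451 at 24 h.

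Of the 32 tested PAP genes, 11 rose (34.4%, against 28.0% of all genes) and 2 fell (6.25%, against 9.81%) at 12 h in B175 (B12 vs B0). For JK3 at 12 h, 6 rose (18.8%, against 24% of all genes) and 1 fell (3.12%, against 7.67%). With scaling 5 rose (15.6%, against 15.3%) and 6 fell (18.8%, against 16.0%) in B175, and 6 rose (18.8%, against 12.7%) and 6 fell (18.8%, against 12.4%) in JK3. At 24 h against 0 h, 4 rose (12.5%, against 10.2%) and 2 fell (6.25%, against 6.02%) in B175, and 3 rose in JK3 (9.38%, against 5.36%). PAP22 Seita.8G033400 and PAP17 Seita.9G475300 were up-regulated at both times in both varieties. PAP17 is a marker of phosphate starvation in Arabidopsis.

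PAP22 Seita.8G033400 had 0.545, 0.299 and 0.346 FPKM in B0, 16.3, 9.94 and 11.1 in B12 and 9.45, 0.672 and 12.6 in B24. All B12 libraries were above B0 (log2 fold change 3.24, SE 0.59, adjusted p = 0.000172), and at 24 h replicate 2 was barely above B0 while replicates 1 and 3 stayed high (2.15, adjusted p = 0.0104). JK3 had 1.91, 0.813 and 1.76 FPKM in J0, 19.5, 13.6 and 34.4 in J12 and 7.01, 17.5 and 19.7 in J24, with no overlap of either later group with J0 (log2 fold change 3.17, SE 0.59, adjusted p = 0.000273 and 2.57, adjusted p = 0.00902). The B24 call was lost without B24 replicate 1 or B24 replicate 3, and the J24 call was kept under all 14 alternatives.

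PAP17 Seita.9G475300 had 0.382, 0.732 and 0.277 FPKM in B0, 8.45, 7.998 and 2.2 in B12 and 6.58, 4.72 and 11.2 in B24, every later library being above B0 (log2 fold change 2.16, SE 0.48, adjusted p = 0.00104 at 12 h and 2.48, adjusted p = 0.00108 at 24 h). In JK3 the libraries had 4.73, 0.406 and 2.82 FPKM in J0, 10.7, 11.6 and 19.3 in J12 and 7.11, 9.65 and 13.7 in J24, again with all later libraries above J0 (2.2, adjusted p = 0.00110 at 12 h and 1.79, adjusted p = 0.0204 at 24 h). Its neighbours Seita.9G475100 and Seita.9G475200, both annotated PAP3, were more abundant, with means of 108 and 62.2 FPKM against 6.81, and took other courses. Seita.9G475100 had 75.8 to 126 FPKM in B175 and 82.8 to 171 in JK3 and was called only with scaling, down-regulated in J12 vs J0 (-1.03). Seita.9G475200 was up-regulated from 12 to 24 h in both varieties, with 33.6 to 34.7 FPKM in B12 and 72.9 to 84.3 in B24, and 25.2 to 46.3 in J12 and 78.0 to 104 in J24. With scaling it was also down-regulated at 12 h against 0 h in both (-1.59 and -1.25).

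PAP16 Seita.5G448100, annotated as a probable inactive enzyme, had 12.9, 13.4 and 13.6 FPKM in B0, 43.2, 33.7 and 39.1 in B12 and 96.8, 27.1 and 70.9 in B24. B0 was tight and below all later libraries (log2 fold change 2.03, SE 0.41, adjusted p = 0.00129 for B24 vs B0). In JK3 it had 55.9, 16.0 and 22.4 FPKM in J0, 44.3, 43.4 and 56.1 in J12 and 61.5, 67.1 and 94.5 in J24, and J24 vs J0 was called with J0 replicate 1 close to J24 replicate 1 (log2 fold change 1.39, SE 0.41, adjusted p = 0.0293).

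Genes named PAP2 moved in opposite directions at 12 h. Seita.3G405700, the most abundant gene of the set, had 195, 315 and 225 FPKM in B0, 109.7, 106 and 24.3 in B12 and 370.2, 452 and 361 in B24, and 806, 287 and 677 in J0, 63.2, 111 and 42.9 in J12 and 333, 304 and 227 in J24. Its 12 h libraries were below all others of the variety (log2 fold change -1.85, SE 0.49, adjusted p = 0.00399 and log2 fold change -2.99, SE 0.49, adjusted p = 9.38e-05). Seita.5G338000 rose instead, from 16.0, 11.9 and 14.3 FPKM in B0 to 69.3, 61.6 and 47.4 in B12 and from 33.8, 12.2 and 20.9 in J0 to 76.6, 74.6 and 85.3 in J12 (1.99, adjusted p = 9.18e-06 and 1.89, adjusted p = 2.26e-05). At 24 h it was at 17.9 to 27.3 FPKM in B24 and 30.8 to 43.6 in J24, not called against 0 h.

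Another PAP2 gene, Seita.1G236200, was found at 12 h almost alone. It had 2.18, 0.914 and 1.49 FPKM in B12 and 1.49, 1.36 and 1.80 in J12, and 0 fragments in the 9 libraries of B0, J0 and B24. In J24 it had 0, 0.0188 and 0.187 FPKM. Against a floor of 3 fragments over the group, its level was at least 80.5-fold higher in B12 than in B0 and at least 80.4-fold higher in J12 than in J0. The limma log2 fold changes, which adding 1 understates, were 1.31 and 1.35 (adjusted p = 1.70e-06 and 1.75e-06).

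The genes annotated PAP27 are probable inactive PAPs. Seita.6G222500 had 27.0, 17.0 and 19.0 FPKM in B0, 66.8, 64.9 and 57.3 in B12 and 2.55, 3.62 and 5.45 in B24, no 2 groups overlapping. It rose at 12 h (1.56, adjusted p = 1.52e-05) and fell below its starting level at 24 h (log2 fold change -2.19, SE 0.22, adjusted p = 3.56e-06). With scaling the rise in B175 was 0.93 and no longer called. JK3 had 13.4, 18.2 and 18.2 FPKM in J0, 44.3, 49.2 and 60.6 in J12 and 11.3, 14.9 and 10.9 in J24, an increase at 12 h (1.57, adjusted p = 1.96e-05) followed by a return near J0 (-0.40, adjusted p = 0.237). Between 0 and 24 h its course was not the same in B175 and JK3 (interaction 1.79, SE 0.31, adjusted p = 0.00634), and at 24 h JK3 was higher (1.48, adjusted p = 0.000427). It was the 1 tested gene of the set with such a call between 0 and 24 h (2.52% of all genes).

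Of the other PAP27 genes, Seita.5G349600 rose at 12 h in both varieties, with 0.967 to 1.62 FPKM in B0 and 2.63 to 8.20 in B12, and 1.71 to 2.31 in J0 and 5.19 to 11.3 in J12 (1.49, adjusted p = 0.00308 and 1.47, adjusted p = 0.00399). Seita.7G042800 had 2.43, 1.85 and 2.48 FPKM in B0, 7.17, 5.72 and 7.21 in B12 and 2.07, 0.838 and 2.30 in B24, and less in JK3, at 0.825 to 1.41 in J0, 2.52 to 2.83 in J12 and 1.17 to 1.63 in J24. It was called in B12 vs B0 (1.24, adjusted p = 8.76e-05), but not with scaling (0.72), and J12 was below B12 (-1.06, adjusted p = 0.00363). All J12 libraries were above J0. Limma did not call J12 vs J0, but voom on the recovered fragments did (1.36, adjusted p = 0.00387). Voom also called this gene lower in J0 than in B0 (-1.10, adjusted p = 0.0353). PAP15 Seita.6G105500, named after a phytase of Arabidopsis, rose in B175, with 0.0626 to 0.442 FPKM in B0, 1.69 to 2.15 in B12 and 0.798 to 2.57 in B24. Its 12 h call was lost with scaling, and its 24 h call without B0 replicate 2, B0 replicate 3, B24 replicate 1 or B24 replicate 3. In JK3 it had 0.228 to 3.60 FPKM in J0, 1.90 to 3.64 in J12 and 2.66 to 5.46 in J24. Limma called no change in JK3, but voom on the recovered fragments called J24 vs J0 (1.98, adjusted p = 0.0489). No interaction was called for this gene.

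Of the sulfolipid genes, SQD1 Seita.3G259100, which makes UDP-sulfoquinovose, had 75.2, 65.3 and 78.3 FPKM in B0, 165, 189 and 151 in B12 and 146, 90.3 and 142 in B24. The increase at 12 h (log2 fold change 1.19, SE 0.27, adjusted p = 0.00121) was 0.54 and not called after scaling. In JK3 the libraries had 48.5 to 133 FPKM in J0, 117 to 152 in J12 and 132 to 168 in J24, with no call. SQD2 transfers the sulfo-sugar to diacylglycerol, and 3 genes carried that name. Seita.5G098100 had 9.24, 6.08 and 10.7 FPKM in B0, 17.8, 17.7 and 14.0 in B12 and 36.1, 33.8 and 50.8 in B24, all groups being separate (log2 fold change 2.10, SE 0.40, adjusted p = 0.000908 for B24 vs B0). In JK3 it had 44.2, 8.56 and 19.2 FPKM in J0, 15.7, 14.1 and 18.8 in J12 and 61.9, 45.8 and 89.95 in J24, with J24 above both other groups (1.65, adjusted p = 0.0122 against J0 and 1.92, adjusted p = 0.000903 against J12).

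The other SQD2 genes did not share this course. Seita.9G456900 had 82.1 to 88.0 FPKM in B0, 48.4 to 50.5 in B12 and 44.1 to 59.3 in B24, and 73.6 to 85.4 in J0, 43.1 to 44.8 in J12 and 43.2 to 47.4 in J24. It was lower at both later times without passing the fold limit (-0.79 and -0.82 at 12 h), and with scaling it was down-regulated at 12 h in both varieties (-1.44 and -1.38). Seita.J005600 ranged from 32.9 to 75.4 FPKM over all libraries and was not called.

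Between the varieties at 0 h, 3 genes were higher in JK3 (6.78% of all genes) and 2 were lower (6.02% of all). At 12 h these numbers were 1 (3.97% of all) and 2 (2.38% of all), and at 24 h 2 (2.28% of all) and 0. Voom on the recovered fragments called 2 higher and 4 lower in JK3 at 0 h (1892 and 2032 of all 23824 genes). It called 2 and 2 at 12 h (1049 and 711 of all), and 2 and 1 at 24 h (639 and 634 of all). At an unadjusted p under 0.05 limma had 16 higher and 8 lower at 0 h, 4 and 3 at 12 h, and 6 and 4 at 24 h. In all, limma called 5 genes at 0 h (12.8% of all), 3 at 12 h (6.35%) and 2 at 24 h (4.55%). Of the 5 inorganic phosphate transporters among the 54 tested genes, 3 were called. Because 2 of these were called at more than 1 time, they made up 6 of these 10 calls. The 6 calls are thus not 6 genes, and an excess of transporters among the calls was not tested.

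PHT1-8 Seita.9G238300 was higher in JK3 at all 3 times. It had 87.1, 77.4 and 101 FPKM in B0, 59.3, 83.6 and 55.6 in B12 and 81.0, 44.6 and 114 in B24, against 239, 274 and 192 in J0, 242, 314 and 203 in J12 and 210.4, 139 and 161 in J24. All 9 JK3 libraries were above all 9 B175 libraries, and the mean was 2.65-fold higher at 0 h (log2 fold change 1.39, SE 0.28, adjusted p = 0.00203), 3.82-fold at 12 h (log2 fold change 1.92, SE 0.28, adjusted p = 0.000274) and 2.13-fold at 24 h (log2 fold change 1.16, SE 0.28, adjusted p = 0.02001). The call at 24 h was lost without B24 replicate 2, J24 replicate 1 or J24 replicate 3.

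PHT1-13 Seita.7G033300 was higher in J0 than in B0, with no overlap (log2 fold change 2.59, SE 0.51, adjusted p = 0.00173). PHT2-1 Seita.1G216200 was lower in JK3 at 0 h, by a 3.18-fold difference of the means (log2 fold change -1.71, SE 0.31, adjusted p = 0.000933), and at 12 h (log2 fold change -1.51, SE 0.31, adjusted p = 0.00453). Of the 25 tested leaf genes 14 were lower in J0 than in B0 (6.02% of all genes) and 14 in J12 than in B12 (2.38% of all). Their part in the difference of PHT2-1 was not tested. SQD2 Seita.5G098100 was called at 0 h (1.12, adjusted p = 0.0492) with overlapping groups, and this call was lost under 10 of 14 alternatives.

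PAP3 Seita.8G147900 was lower in J0 than in B0 (log2 fold change -2.08, SE 0.48, adjusted p = 0.00476). It had 2.56, 5.68 and 3.42 FPKM in B0, 0.460, 1.83 and 0.481 in B12 and 0.254, 4.90 and 0 in B24, against 0, 0.0268 and 0.348 in J0, 0.0270, 0 and 0.483 in J12 and 0, 0 and 0 in J24. Its neighbour PAP4 Seita.8G147500, singled out after its values were seen, had 0 fragments in all 9 JK3 libraries. In B175 it had 1.39, 0.685 and 0.554 FPKM in B0, 0.269, 0.839 and 0 in B12 and 0, 2.29 and 0 in B24, so that B0 was at least 32.3-fold higher than J0 against a floor of 3 fragments over the group. Its fitted difference at 0 h was not called (-0.88, adjusted p = 0.0669), but it was with scaling (-1.01) and with voom.

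**Figure D4:**
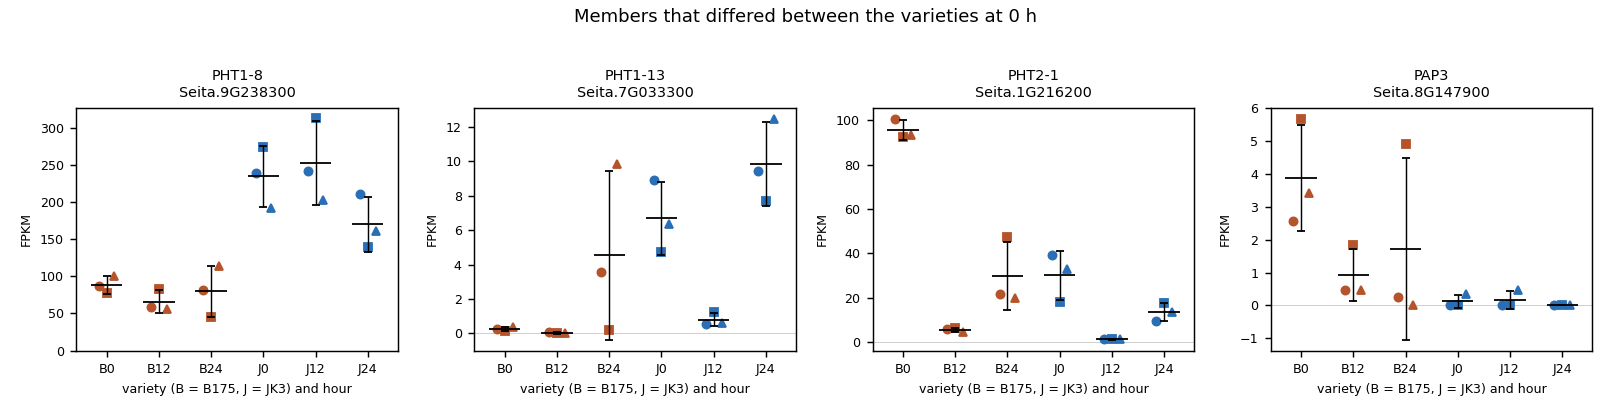
FPKM by group of 4 genes that differed between the varieties at 0 h without overlap, with circles, squares and triangles for replicates 1, 2 and 3, the mean (long bar) and 1 SD (thin bar), n = 3. PHT1-8 is higher in every JK3 library, PHT2-1 is lower in J0 than in B0, and PHT1-13 and PAP3 are near 0 in 1 variety at 0 h.

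A limma interaction between time and variety was called for 0 of the 54 genes between 0 and 12 h (5.87% of all genes). At an unadjusted p under 0.05 there were 6 genes (20.2% of all genes), 3 of them in each direction, and voom on the recovered fragments called 0. Between 0 and 24 h there was 1 call (2.52% of all genes), PAP27 Seita.6G222500. At an unadjusted p under 0.05 there were 3 genes (15.7% of all), and voom called 1. With 3 libraries a group these counts do not show that the varieties responded alike.

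The spread between libraries was not even over the groups. In J0, replicate 1 was the highest library for 31 of 50 genes of the set without ties (62%, against 40.5% of all genes tested) and replicate 2 the lowest for 35 (70.0%, against 39.1%). In B24, replicate 2 was the lowest for 29 of 52 (55.8%, against 49.6%), and its mean correlation with the other B24 libraries, 0.941, was the lowest of all libraries. In J24, replicate 3 was the highest for 27 of 51 (52.9%, against 39.9%). SPX1 Seita.4G222700 had 23.4 FPKM in J0 replicate 1 and 3.30 in J0 replicate 2, and SPX-MFS Seita.7G205800 was the exception among the 8 genes raised at 24 h, with its highest J0 value in replicate 2. Of the 108 calls over all comparisons, 69 were kept under every alternative. All 8 decreases in J12 vs J0, 8 of the 9 in B12 vs B0 and 7 of the 11 increases in B24 vs B0 were kept, but only 1 of the 8 increases in J24 vs J0.

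**Figure D5:**
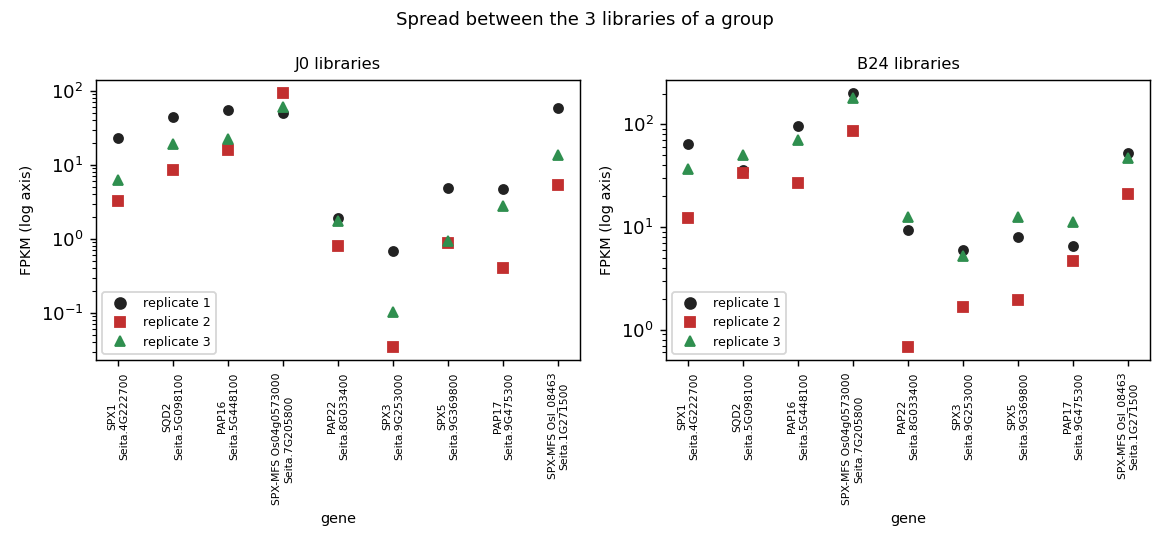
FPKM (log axis) of 9 genes in the 3 libraries of J0 (left) and of B24 (right), 1 symbol and colour for each replicate. J0 replicate 1 is the highest in 8 of the 9 genes and J0 replicate 2 the lowest in 8, with SPX-MFS Seita.7G205800 in the reverse order, and B24 replicate 2 is the lowest in all 9.

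Many members lay close together. Members beside each other, or nearly so, in the order of the expression table formed 10 groups that held 23 of the 62 genes. Chromosome 9, read from the identifiers, held 14. Within such a group the highest mean FPKM was 2.37 to 472 times the lowest, and in 9 of the 10 groups the ratio was above 4. PHT1-8 Seita.9G238300 and PHT1-3 Seita.9G238400 were at the upper end, with means of 149 and 0.315 FPKM, and PHT1-4 and PHT1-13 at the lower. Where such copies are nearly identical, fragments can be assigned to the wrong copy or dropped, and the sources used here do not say how the counting treated them.

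A GO term of phosphate starvation was attached to 15 of the 62 genes: the SPX, PHO1 and sulfolipid genes, but no PAP, PHT or SPX-MFS gene. Of the 14 that were tested, 5 were up-regulated in B24 vs B0 (35.7%, against 10.2% of all genes) and 4 in J24 vs J0 (28.6%, against 5.36%), none of them down-regulated. In B12 vs B0, 4 rose (28.6%, against 28.0%) and 3 fell (21.4%, against 9.81%), and in J12 vs J0, 0 rose (24% of all genes) and 2 fell (14.3%, against 7.67%). After scaling none rose at 12 h and 4 fell in each variety (28.6%, against 16.0% of all genes in B175 and 12.4% in JK3).

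Other genes of phosphate use were counted from lists drawn from the descriptions. At 12 h 28.0% of all genes rose and 9.81% fell in B175, and 24% rose and 7.67% fell in JK3. At 24 h against 0 h 10.2% rose and 6.02% fell in B175, and 5.36% rose and 2.06% fell in JK3, and the counts of these lists are to be read against those shares. Of 29 tested lipid remodelling genes (named by phrases for glycerophosphodiesterases, galactolipid synthases, phospholipases and phosphatidate phosphatases), 10 fell and 2 rose in B12 vs B0 and 9 fell and 1 rose in J12 vs J0, and from 12 to 24 h 7 rose in B175 and 10 in JK3, with 1 decrease in each (7.86% of all genes rose in B175 and 7.30% in JK3, and 18.8% and 18.7% fell). At 24 h against 0 h 4 rose and 1 fell in B175 and 3 rose in JK3. Of 14 signalling genes, 2 rose and 3 fell in B12 vs B0, 2 rose and 2 fell in J12 vs J0, 1 rose and 2 fell in B24 vs B0, and 1 rose and 1 fell in J24 vs J0. Of 32 other phosphate carriers, 7 rose (21.9%, against 28.0% of all genes) and 3 fell (9.38%, against 9.81%) in B12 vs B0, 8 rose (25.0%, against 24%) and 2 fell in J12 vs J0, and these numbers were 2 and 4 in B24 vs B0, and 2 and 1 in J24 vs J0.

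The other phosphate carrier with the largest log2 fold change at 12 h was Probable anion transporter 6 Seita.1G127900, at 246, 236 and 247 FPKM in B0, 3.30, 2.62 and 1.79 in B12 and 69.3, 197 and 82.4 in B24 (-6.12, adjusted p = 1.61e-10 for B12 vs B0). In JK3 its values were 99.1 to 164 FPKM in J0, 1.83 to 2.90 in J12 and 71.6 to 106 in J24 (-5.31, adjusted p = 9.72e-10 for J12 vs J0). The phrases meant for release of phosphate inside the cell (pyrophosphatases and ribonucleases) caught 22 genes, not all of which need have that role. Of these, 8 rose (36.4%, against 28.0% of all genes) and 2 fell in B12 vs B0. The numbers were 5 (22.7%, against 24%) and 1 in J12 vs J0, 3 and 0 in B24 vs B0, and 2 and 1 in J24 vs J0. Ribonuclease 1 Seita.6G159400 had 15.6, 22.02 and 12.9 FPKM in B0, 1008, 1037 and 926 in B12 and 554, 165 and 669 in B24, and 112, 222 and 119 in J0, 1297, 1228 and 1632 in J12 and 392, 679.8 and 1039 in J24. All later libraries of a variety were above its 0 h libraries, and J0 was above B0 (3.05, adjusted p = 0.000138), and the rise from 0 to 12 h was 5.83 in B175 and 3.25 in JK3 (interaction -2.57, SE 0.62, adjusted p = 0.0236). The 5'-3' exoribonuclease 3 gene Seita.6G040000 was also caught by the description phrase, although it is an RNA decay enzyme. It is counted among the 22 and among their increases at 12 h, with a rise of 4.29 in B175 and 4.21 in JK3.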

How the data were processed

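RNA-seq of leaves gave 18 libraries in 6 groups of 3, taken from the labels. The deposited values are FPKM, computed by the authors per kilobase of gene and scaled to the mapped fragments of each library. The labels list fastp, HISAT2 and HTSeq without saying what each did, and the genome build they name is of another species than the gene identifiers. Each FPKM value came back to a whole number of fragments for 100% of genes, so library totals and a count-based alternative were available. These numbers are the smallest that fit, so those of a gene can be too low by a common factor. A gene above 0 in a single library is the plainest case. Intervals and floors cover counting error only.

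Genes with a mean of at least 0.1 FPKM were tested on log2(FPKM + 1) with limma 3.58.1 (R 4.3.3, trended prior) in 1 fit of all 6 groups, for 9 comparisons of 2 groups and 2 interactions of variety and time. Calls needed an absolute log2 fold change above 1 and a Benjamini-Hochberg adjusted p under 0.05, interactions the adjusted p alone. The code was tested on simulated data. Genes were named by level in their role (the 2 highest), by the 3 largest changes in each direction without overlap of the groups, or by an interaction; others described were added after their values were seen. The genes and lists were chosen with earlier results of these data known. Alternatives were another pseudocount, other filters, median-ratio and quantile scaling, a replicate block, the compared groups alone, voom, and leaving out each library. Sequences are not shown, since 0 of the 62 genes matched the RefSeq gene table.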

Additional observations from a re-analysis of the deposited data

Results flagged for a closer look

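PAP27 Seita.6G222500 took a different course in JK3 than in B175 between 0 and 24 h, with an interaction of 1.79 on the log2 scale (JK3 minus B175). FPKM was lower in every B24 library than in every B0 library, while the J0 and J24 libraries overlapped. The call was kept under every alternative tried.

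For Ribonuclease 1 Seita.6G159400 the interaction from 0 to 12 h was -2.57 on the log2 scale, the rise in JK3 starting from a higher level at 0 h. All 3 libraries of B12 and of J12 were above all libraries of B0 and J0. The cause of either difference was not tested.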

How the results depend on the processing

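Of the 108 calls of the 54 genes, 69 were kept under every alternative and 39 were lost under at least 1. With only the compared groups in each fit, the called genes went from 9 to 3 in J24 vs J0, from 2 to 0 in J24 vs B24 and from 0 to 1 in the interaction of 0 to 12 h. Over all genes that fit called 250 up and 198 down in J24 vs B24 against 542 and 543, and 44 and 191 in the interaction of 0 to 24 h against 124 and 476. A pseudocount of 0.1 gave 9 instead of 5 in J0 vs B0. When single libraries were left out there were 19 to 24 called genes in B12 vs B0, 9 to 15 in B24 vs B0 (9 without B24 replicate 1), 17 to 22 in B24 vs B12, 14 to 18 in J12 vs J0, 1 to 13 in J24 vs J0, 15 to 17 in J24 vs J12, 4 to 10 in J0 vs B0, 3 to 4 in J12 vs B12, 1 to 4 in J24 vs B24, 0 to 1 in the interaction of 0 to 12 h and 1 to 4 in that of 0 to 24 h (4 without B24 replicate 2). In J24 vs J0 there were 4 without J0 replicate 2, 3 without J0 replicate 3 and 1 without J24 replicate 3. With quantile normalization the split was 6 up and 12 down in B12 vs B0 and 5 and 14 in J12 vs J0. No consistent pairing by replicate number was seen. In none of the 9 comparisons were all 3 correlations of same-numbered libraries above 0.1, although the highest, in B24 vs B12, was 0.330. With 3 libraries a group, this cannot show that the libraries were unpaired. With a replicate block 14 genes were called in J12 vs J0, 25 in B12 vs B0, 14 in B24 vs B0, 11 in J24 vs J0, 20 in B24 vs B12 and 16 in J24 vs J12, 6, 3 and 2 between the varieties at 0, 12 and 24 h, and 0 and 1 in the interactions. No named gene reversed its direction. The causes were not tested.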
